A study of Drosophila melanogaster with 2 samples.

Results

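The Polycomb group genes described here are the 10 genes ph-p, ph-d, Pc, Psc, Su(z)2, Sce, E(z), esc, Pcl and pho, out of 13945 protein-coding genes of Drosophila melanogaster. They are a list named by function, and the rule that names them uses no measured value. The list was nevertheless chosen with earlier results of these data known, so its shares are not those of an unselected list. A peak was counted for a gene when its summit, the base of highest signal, lay in the gene body or was closer to a transcription start site (TSS) of that gene than to one of any other protein-coding gene. By this rule 16 summits of the reproducible peak set belonged to the list, out of 7838.

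The data were chromatin immunoprecipitation sequencing (ChIP-seq) peaks of Dmrt99B, which binds DNA through a DM domain. They came from whole embryos of both sexes, 6 to 16 hours old, of 1 transgenic line that stably carries Dmrt99B with green fluorescent protein at its C-terminus, and per the labels' description an antibody against the fluorescent protein was used, while their antibody entry reads dmrt99B. There was 1 group of 2 biological replicates, numbered 3 and 4, and no untagged, input or second group was analysed here. The summits therefore show where the fusion protein was recovered in a mixture of all embryonic cell types, and say nothing of expression of the genes beside them.

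Polycomb group proteins keep developmental genes such as the Hox genes silent through cell divisions. They work in complexes: PRC1 compacts chromatin and ubiquitylates histone H2A, PRC2 methylates histone H3, and the DNA-binding protein Pleiohomeotic helps to bring them to Polycomb response elements. Of the genes listed, ph-p and ph-d (Polyhomeotic), Psc and Su(z)2 (RING-finger proteins of the same family), Pc (the chromodomain subunit) and Sce (the ubiquitin ligase) encode parts of PRC1. E(z) encodes the methyltransferase of PRC2, esc a WD-repeat subunit and Pcl an associated PHD-finger protein, and pho encodes Pleiohomeotic.

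Dmrt99B-eGFP was recovered at 5 of the 10 genes, and at the other 5 there was no summit in the reproducible set. The authors made this set by a cutoff on the IDR (irreproducible discovery rate), which scores whether a peak holds its place when replicates are ranked. Its 7838 peaks were also the pooled peaks of highest signal value. A place in the set therefore does not by itself show that a given peak ranked alike in both replicates. Of all protein-coding genes, 27.6% had an assigned IDR summit. Bound were 4 of the 6 PRC1 genes (ph-p, ph-d, Psc and Su(z)2) and 1 of the 3 PRC2 genes (E(z)), but not pho. For the same 5 genes an IDR summit lay 1000 bp or less from an own TSS, which is called promoter-bound here, against 20.1% of all genes. Among the authors' relaxed peaks from both replicates pooled, 30000 in number, the same count of 5 members had a summit, against 42.0% of all genes. The listed genes had a median length of 8360 bp, against 2166 bp for all protein-coding genes, and the part of gene length in these counts was not tested. The 5 genes with an IDR summit were between 3556 and 14998 bp long, and the 5 without one between 1599 and 11883 bp.

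The 16 summits ranged from among the strongest to near the weakest of the IDR set. Signal value, the authors' score of a peak, has no stated scale and is compared here within a list only. The 16 summits had a median signal value of 696, against 341 for all IDR peaks. Of them, 7 were among the strongest 10% of all IDR peaks and 5 were below the median of those peaks. Of the 10 genes 2, ph-p and Psc, had a summit among the strongest 1% of peaks, against 0.588% of all genes. By location, 9 summits were in a promoter (within 500 bp of any annotated TSS), 4 in an intron and 3 in intergenic sequence. These are 56.3% in promoters, against 29.5% of all IDR summits, 25% in introns, against 47.3%, and 18.8% in intergenic sequence, against 20.3%.

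**Figure D1:**
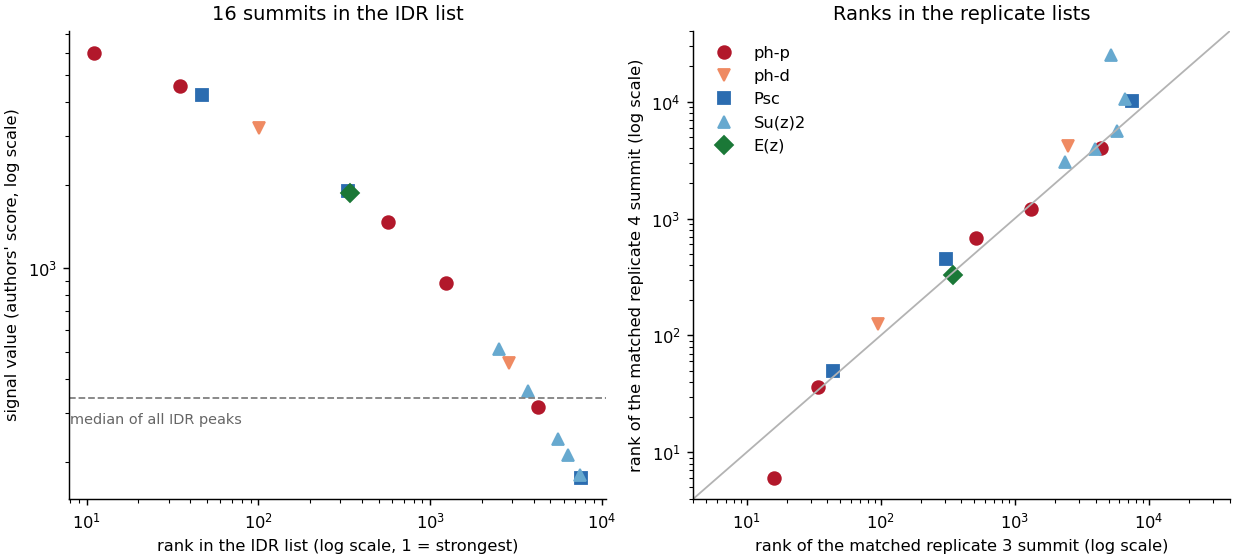
Left, signal value (authors' score, log scale) against rank in the IDR list (log scale) for the 16 summits of the listed genes. The dashed line is the median of all IDR peaks, 341. Right, rank of the matched summit in the replicate 4 list against that in the replicate 3 list (log scales), with the line of equal rank. The strong summits lie near the line, and the point farthest above it is a Su(z)2 summit with rank 5262 in replicate 3 and 25008 in replicate 4.

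ph-p (FBgn0004861) carried the strongest summit of all 10 genes. The gene lies on the X chromosome from 2126210 to 2138371 of the dm6 build, on the minus strand, and has 3 TSSs. Its strongest summit, at 2137313, had a signal value of 6025 and was number 11 of the 7838 IDR peaks. It lay in an intron of the longest transcript, 458 bp upstream of the TSS of a shorter one. In the replicate lists, 30000 peaks each, the matching summit ranked 16 in replicate 3 and 6 in replicate 4. A second summit, 638 bp away at 2137951, had a signal value of 4556 (rank 35, and 34 and 36 in replicates 3 and 4) and lay in the first exon of the longest transcript, 420 bp downstream of its TSS.

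The peaks around these summits were 579 and 617 bp wide, against a median of 402 bp in the IDR list. Weaker ph-p summits followed along the transcribed strand. The one at 2136540, 82 bp downstream of the most proximal TSS, had a signal value of 315 (rank 4241). Those in an intron, 1272 and 2201 bp downstream of that TSS, had 1474 (rank 571) and 883 (rank 1233). With 5 IDR summits ph-p was in the class of genes with 5 or more, which held 3.35% of all protein-coding genes. Su(z)2 was the other listed gene in this class, through summits outside its gene body that the nearest-TSS rule assigned to it, as far as 17984 bp from its TSS. When all 3844 genes with an assigned IDR summit were ranked by their strongest one, ph-p was number 12. The genes next above it, by this single measure from 1 pooled list, were Art3 (6094) and CG13323 (6090), and those next below it were Trl (5878) and Fkbp14 (5812).

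ph-d (FBgn0004860), the tandem copy of ph-p, had fewer and weaker summits. It lies on the same strand of X from 2115727 to 2123286, and 2924 bp separate its distal TSS from the end of ph-p. Its strongest summit, at 2124099, had a signal value of 3209 (rank 101, and 95 and 126 in replicates 3 and 4), and lay in intergenic sequence 813 bp upstream of that TSS. The other IDR summit, at 2123148, lay 138 bp downstream of that TSS in the first exon, with a signal value of 455 (rank 2861). In the replicate lists a further summit stood on the far side of the strongest one, with a signal value of 312 (rank 3072) in replicate 3 and 265 (rank 1209) in replicate 4, and the pooled list held none there.

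The strongest summit of ph-p exceeded that of ph-d in both replicates. In replicate 3 the signal values were 4025 for ph-p and 2316 for ph-d, a log2 ratio of 0.80. In replicate 4 they were 2101 for ph-p and 892 for ph-d, a log2 ratio of 1.24. The mean log2 ratio was 1.02 ± 0.31 (SD, n = 2 replicates), and the pooled list gave 0.91, or 1.88-fold. Both replicates gave the same direction. An exact sign-flip permutation test over 2 replicates cannot give a two-sided p below 0.5, and the difference was not tested. Summed over IDR summits, the signal values were 13252 for ph-p and 3665 for ph-d, a ratio of 3.62.

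**Figure D2:**
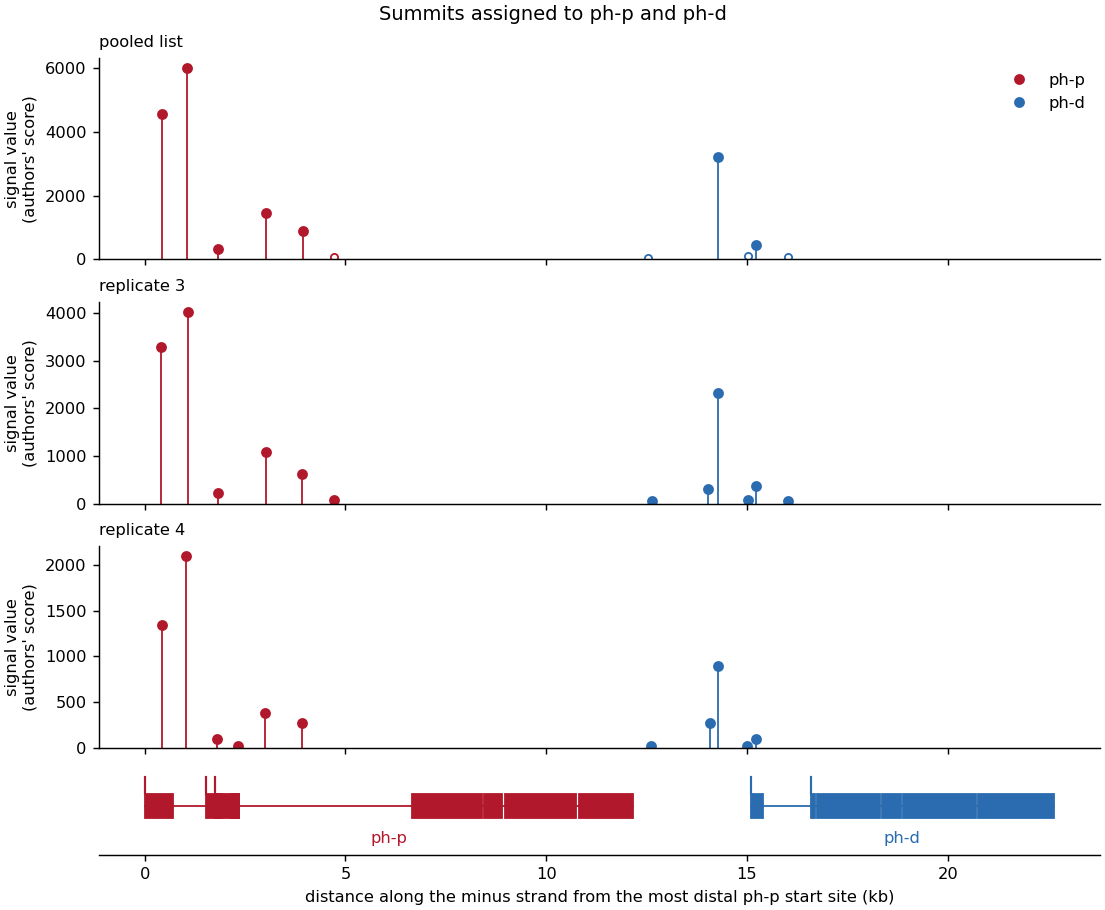
Signal value (authors' score, linear axis) of every summit assigned to ph-p (red) and ph-d (blue) in the pooled, replicate 3 and replicate 4 lists, against distance along the minus strand from the most distal ph-p TSS (kb). Filled points in the pooled panel passed the IDR threshold and open points did not. Boxes are exons and ticks are TSSs. In each of these lists the ph-p pair of summits near its distal start site is higher than the highest ph-d summit.

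The upstream sequences of the copies were compared to place their summits on each other. An alignment of ph-p with ph-d, each with up to 3000 bp of upstream sequence, gave 5 colinear blocks. The TSS of ph-p at 2136855 fell in a block of 529 bp with 90.7% identity, 3 bp from the corresponding position of the distal ph-d TSS. Further upstream, blocks of 387 bp (70.5% identity) and 358 bp (81.0% identity) followed in the same order. None of the 7 IDR summits of the pair lay inside a block. The strongest ph-p summit lay in a stretch of 208 bp between the first and the second of these blocks. The facing ph-d stretch was only 15 bp, so its lack of an IDR summit says little. The second ph-p summit, at the last bases of the next unaligned stretch (98 bp), faced a ph-d stretch of 209 bp that held the strongest ph-d summit.

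This pairing rests on 3 bp, since the next block begins 3 bp beyond the second ph-p summit. In replicate 3 the matching summit, at 2137954, was the first base of that block, whose ph-d side held the weaker replicate summits of 312 and 265. Between the second ph-p summit and the strongest ph-d summit, the signal values were 3286 for ph-p and 2316 for ph-d in replicate 3 (1.42-fold), and 1344 for ph-p and 892 for ph-d in replicate 4 (1.51-fold). Sequence shared by the copies could divide reads, so the uniqueness of 32-base words on the chromosome arms was counted. All 32-base words in the windows of 201 bp around each of the 16 summits were unique, as they were in 98.9% of all IDR windows. The peak of the strongest ph-p summit also ran into the block of 529 bp, where 80.9% of the ph-p words were unique. In the longest block, 4480 bp that include most coding sequence, 42.7% of the ph-p words were unique. None of the 4 peak lists had a summit in that block in either gene, and the part of shared sequence in this absence was not tested.

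The stretches that differ are shown here because the strongest summit of each copy lies in one of them. They were read from the Release 6 reference (dm6) on the minus strand, chrX:2137253-2137484 for ph-p, chrX:2123685-2123723 for the facing stretch of ph-d and chrX:2124041-2124273 for the ph-d stretch with its strongest summit. Capitals mark bases outside the aligned blocks, and the 12 bases in lower case at each end belong to blocks.
ph-p, strongest summit: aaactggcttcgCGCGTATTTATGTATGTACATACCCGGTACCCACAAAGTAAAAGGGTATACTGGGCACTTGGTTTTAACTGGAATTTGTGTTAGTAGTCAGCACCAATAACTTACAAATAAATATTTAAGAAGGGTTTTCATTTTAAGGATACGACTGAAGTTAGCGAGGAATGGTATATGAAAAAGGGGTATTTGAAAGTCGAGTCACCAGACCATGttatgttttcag
ph-d, facing stretch: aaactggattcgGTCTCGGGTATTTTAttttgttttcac
ph-d, strongest summit: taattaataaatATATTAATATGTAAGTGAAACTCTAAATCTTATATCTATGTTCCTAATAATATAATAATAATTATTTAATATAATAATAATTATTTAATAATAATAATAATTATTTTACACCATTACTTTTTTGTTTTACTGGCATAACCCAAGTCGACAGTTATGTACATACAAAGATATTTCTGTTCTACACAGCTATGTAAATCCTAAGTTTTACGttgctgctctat
The capitals of the first have a GC content of 37.5%, and those of the last, which hold runs of AAT and ATT repeats, 21.1%. None of the 7 motifs named further on matched in any of these stretches.

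**Figure D3:**
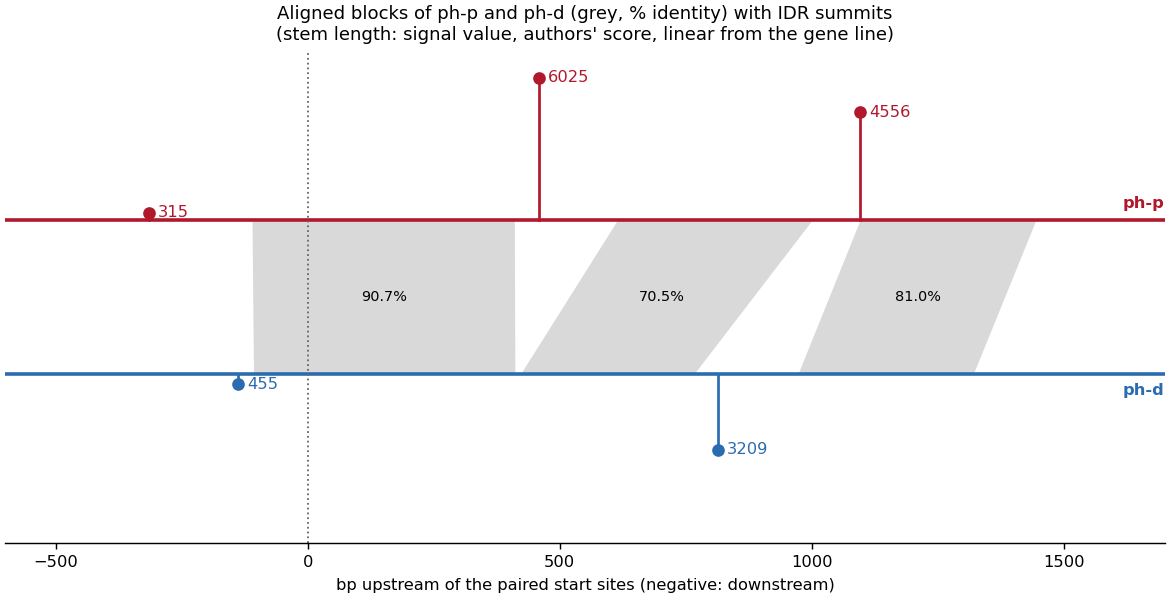
Blocks that align between ph-p (red line, top) and ph-d (blue line, bottom), in grey with percent identity, against distance upstream of the paired TSSs (bp). Stems are IDR summits, with length and label giving the signal value (authors' score). The ph-p summits of 6025 and 4556 and the ph-d summit of 3209 stand beside the grey blocks. The ph-d stretch that faces the first is only 15 bp.

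The second pair of paralogues, Psc and Su(z)2, lies on chromosome arm 2R in head-to-head orientation, with 15507 bp between the most distal TSSs. Psc (FBgn0005624) runs from 12965997 to 12980994 on the minus strand and Su(z)2 (FBgn0265623) from 12996501 to 13007911 on the plus strand. No block aligned between these loci at the limit used. Psc had 3 IDR summits and Su(z)2 had 5.

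At Psc the strong summits were away from its own promoter. The strongest, at 12985209, had a signal value of 4217 (rank 47, and 44 and 50 in replicates 3 and 4). It lay 4215 bp upstream of Psc, in the space between the paralogues, and 158 bp from the TSS of the non-coding RNA gene lncRNA:CR44339, which alone made it a promoter summit. The next, with 1902 (rank 332, and 308 and 450), lay in an intron 5095 bp downstream of the nearest TSS of Psc. The summit at the Psc promoter itself, in the first exon 42 bp from a TSS, had 176 (rank 7578). This was close to the weakest IDR peak, 169. Its matching summit ranked 7477 in replicate 3 and 10125 in replicate 4.

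At Su(z)2 no summit was strong. Signal values were 362 and 242 at the promoter (19 bp upstream of one TSS and 100 bp downstream of the other), 212 in an intron 8286 bp downstream, and 510 and 179 in intergenic sequence 11263 and 17984 bp downstream of the nearest TSS of the gene, beyond its end. Their IDR ranks ran from 2500 to 7412. Ranks of the 362, 242 and 510 summits were alike in the replicates, between 2357 and 5766 in replicate 3 and between 3074 and 5627 in replicate 4. The intronic summit had a signal value of 188 (rank 5262) in replicate 3, while its nearest replicate 4 summit, 59 bp away, had 16.6 (rank 25008). A further replicate 4 summit at 13005259, within 200 bp as well, had 33.8 (rank 12162). The farthest ranked 6674 in replicate 3 and 10515 in replicate 4.

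Psc exceeded Su(z)2 in the strongest summit but not at the promoter. The strongest summits had signal values of 3010 for Psc and 389 for Su(z)2 in replicate 3, a log2 ratio of 2.95. In replicate 4 they had 1224 for Psc and 127 for Su(z)2, a log2 ratio of 3.27. The mean log2 ratio was 3.11 ± 0.22 (SD, n = 2 replicates), and the pooled list gave 3.05, or 8.27-fold. Within 1000 bp of a TSS the order turned round, with a signal value of 176 for Psc and 362 for Su(z)2, a log2 ratio of -1.04. As for the other pair, the difference was not tested.

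Between the distal TSSs of the pair there were 2 further IDR summits, which the nearest-TSS rule gave to CG33798. They lay 2235 and 2898 bp upstream of it with signal values of 648 (rank 1859) and 275 (rank 4881). Below the IDR threshold, the pooled list held 28 more summits of the listed genes, 10 at Psc, 14 at Su(z)2, 3 at ph-d and 1 at ph-p. Their signal values were between 38.1 and 136. Of these 28, 17 had a summit of each replicate within 200 bp, against 57.0% of all pooled peaks below the threshold. By location 13 were intergenic, 10 in introns, 3 in promoters and 2 in the 3′ UTR. The shares of these locations over all pooled peaks below the threshold were not computed.

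**Figure D4:**
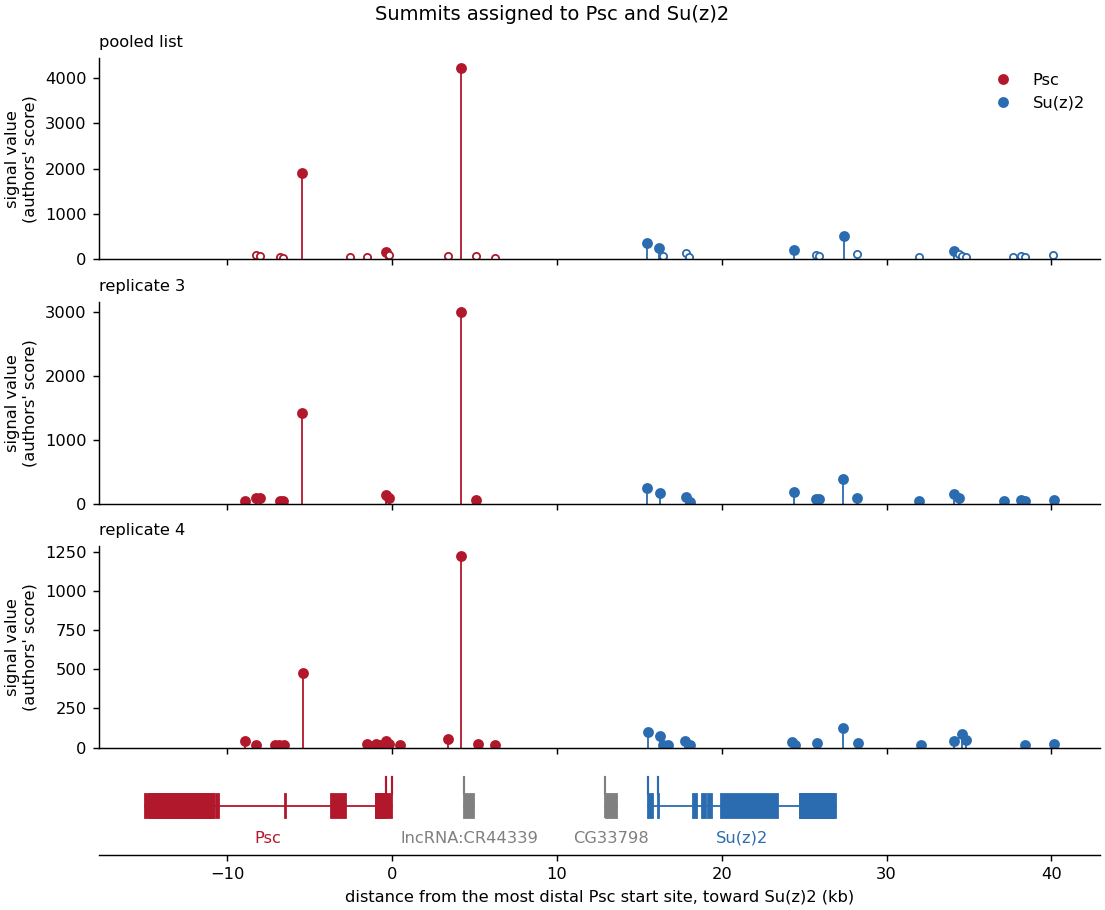
Signal value (authors' score, linear axis) of every summit assigned to Psc (red) and Su(z)2 (blue) in the pooled, replicate 3 and replicate 4 lists, against distance from the most distal Psc TSS toward Su(z)2 (kb). Filled points in the pooled panel passed the IDR threshold and open points did not. Boxes are exons, ticks are TSSs, and grey marks the genes between. In the pooled panel the Psc summits of 4217 and 1902 stand above all others, and the Su(z)2 summits stay at or below 510.

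E(z) (FBgn0000629) was the PRC2 gene with a summit. It lies on 3L from 10634575 to 10638130 on the minus strand, and had a single summit in every list, with no weaker one beside it. The summit at 10638016 had a signal value of 1879 (rank 340), with 1309 (rank 347) in replicate 3 and 567 (rank 326) in replicate 4. It lay in the first intron of the longest transcript, 114 bp downstream of the distal TSS. The TSS of Cnep1r2, which is transcribed in the other direction, was 130 bp from the summit, so the summit lay in a promoter region shared by both genes.

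The other 5 genes, Pc, Sce, esc, Pcl and pho, had no summit in the IDR, pooled or replicate 3 list. In the replicate 3 list 5 of the 10 genes thus had a summit, against 42.7% of all genes, and in the replicate 4 list 7 did, against 47.0%. The extra ones in replicate 4 were weak. Pc had a summit of rank 17499 of 30000, 143 bp upstream of its TSS, and esc had one of rank 14936 at its TSS and one of rank 24489 in a coding exon. Neither gene had a counterpart in replicate 3.

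Strong summits next to Pc and Pcl belonged to their neighbours. The IDR summit nearest to Pc (signal value 3546, rank 78) lay 1550 bp past its 3′ end at the promoter of CG11309, and 13432 bp from the Pc TSS. The one nearest to Pcl (787, rank 1465) lay 1870 bp past its 3′ end at the promoter of pAbp, which encodes the poly(A)-binding protein. For esc the nearest IDR summit, within Pde1c, was 10622 bp past the 3′ end, and for Sce 24927 bp upstream. For pho, on the small chromosome 4, it was 107969 bp away.

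Each of the 16 summits had a replicate 3 summit within 42 bp and a replicate 4 summit within 59 bp. Of all 7838 IDR summits, 7760 had a summit of each replicate within 200 bp. The IDR list was made from these replicates by a reproducibility cutoff, so such matches say nothing particular of the listed genes. Of the 16, 13 ranked within the top 7838 of both replicate lists, against 82.1% of all IDR summits. The other 3 were the promoter summit of Psc and the Su(z)2 summits with 212 and 179, which in replicate 4 ranked below 7838. The order of the strongest summits of the genes was ph-p, Psc, ph-d, E(z) and Su(z)2 in the pooled list and in each replicate, with no test of neighbouring places.

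Sequence motifs were searched as exact matches on both strands in the windows of 201 bp. Any of the 7 was found in 9 of the 16 windows, against 49.0% of all IDR windows. The core of the Pleiohomeotic site, GCCAT, was found in 3 of 16 windows, against 23.8% of all IDR windows. It was in the intronic ph-p window with 883, in the intronic Psc window and in the E(z) window. The GAGA factor sequence GAGAG was found in 4 of 16, against 20.6%. These were 2 Psc windows, the intronic one and the promoter, and both promoter windows of Su(z)2.

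The DM-domain core ACAATGT was in 1 window, the second ph-p summit, against 3.99% of all windows. CAGTGTA, taken up because an earlier analysis of these peaks ranked it first, was in 1 window, the ph-p summit with 315, against 8.42%, and the TATA sequence TATAAAAG in 1, the ph-p summit with 1474, against 2.73%. The promoter sequences of DRE (TATCGATA) and M1BP (GGTCACACT) were in none, against 1.33% and 0.587% of all windows. The windows of the strongest ph-p, ph-d and Psc summits held none of the 7. GC content ran from 24.4% at E(z) to 52.2% at the Su(z)2 promoter, against 34.0% ± 7.38 over all IDR windows (SD, 7838 windows).

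Other genes of the pathway were taken from 3 lists. Of 17 other Polycomb genes, only Kdm2, a histone demethylase gene, had an IDR summit within 1000 bp of a TSS (signal value 648), against 20.1% of all genes. With a distance of 2000 bp the count was 4, against 26.0% of all genes. jing and corto had a summit assigned by gene body or nearest TSS, which made 3 of 17, against 27.6%. The 10 members had 5 promoter-bound genes (50%, 23.7 to 76.3%), and a difference between the lists was not tested. These intervals cover counting error over genes only. Among genes with an assigned IDR summit, the median of the strongest one was 3209 for 5 members and 807 for 3 other Polycomb genes. It was 510 for the 3844 such genes of all protein-coding genes. The part of gene length in these medians was not tested.

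Of 10 genes for DNA-binding proteins linked to Polycomb response elements, 6 were promoter-bound (60%, 95% Wilson interval 31.3 to 83.2%), against 20.1% of all genes. Over the 6 with an assigned IDR summit, the median strongest summit was 1250. The strongest promoter summits were at Adf1 (3460), at Dsp1, an HMG-box protein gene (2826), at Trl, which encodes GAGA factor (1201, against 5878 for its strongest assigned summit, more than 1000 bp from its TSSs), and at grh, the Grainyhead gene (702). psq and lolal were the other promoter-bound genes. The gene phol, a relative of pho, stands in this list and among the other Polycomb genes, and was not bound.

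Trithorax group proteins keep genes active where Polycomb proteins would silence them. Of 14 such genes 6 were promoter-bound (42.9%, 21.4 to 67.4%), against 20.1% of all genes. Over the 8 with an assigned IDR summit, the median strongest summit was 987. The bound genes included brm, the ATPase gene of the Brahma remodelling complex (2140), fs(1)h, a bromodomain protein gene (778), skd of the Mediator complex (410) and mor, a Brahma subunit gene (351), besides osa and tna. With trx and kis, 8 of 14 had an assigned IDR summit, against 27.6% of all genes. osa, a Brahma complex subunit gene, had an assigned summit among the strongest 1% of IDR peaks. Median lengths were 6667 bp for the other Polycomb genes, 6417 bp for the DNA-binding proteins and 17132 bp for the Trithorax group, again longer than that of all genes.

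**Figure D5:**
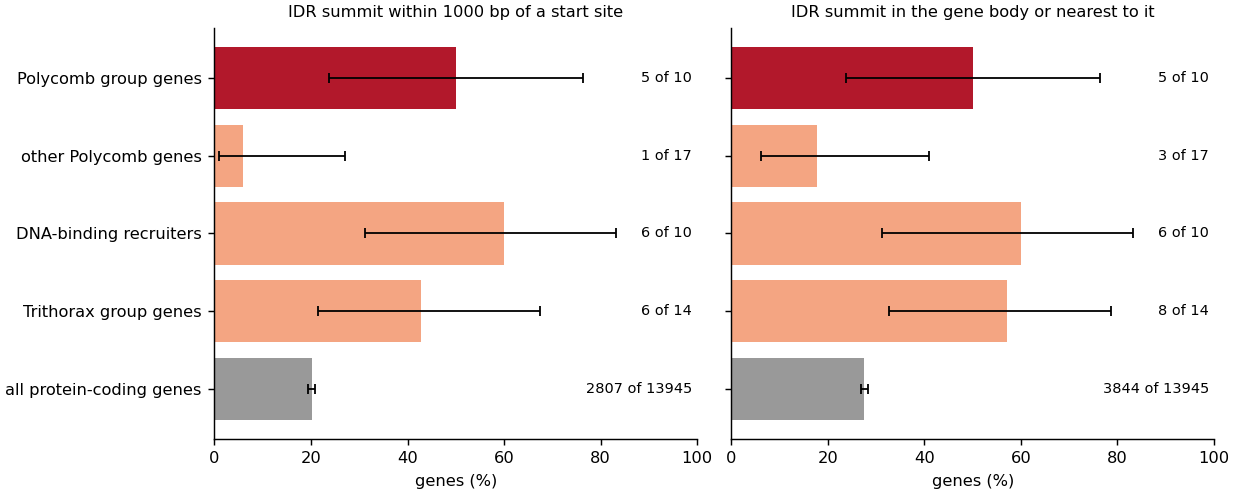
Share of genes (%) with an IDR summit within 1000 bp of a TSS (left) and with one in the gene body or nearest to a TSS (right), for the 10 Polycomb group genes, the 3 further lists and all protein-coding genes. Bars are shares with 95% Wilson intervals, which cover counting error over genes only and take genes as independent. The text gives the counts. The 10 genes stand at 5 of 10 in both panels, and the other Polycomb genes at 1 of 17 and 3 of 17.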

How the data were processed

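Chromatin was sonicated to a size range of 200 to 800, per the labels' description. The authors deposited a relaxed peak list for each of 2 replicates, a relaxed list of both pooled and an IDR-thresholded list, in dm6 coordinates; per the deposited text listing, the last derives from the other 3. The peak lists derive from alignments and 1 further file, possibly the control named in the labels, which was not used here. The sources used here name no aligner or peak caller and no read total; depth is unknown. The signal value in each deposited list is a score with no stated scale. All 7838 IDR peaks were the pooled peaks of highest signal value.

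Summits were placed on the Release 6 sequence (RefSeq) and the Ensembl release 115 annotation, whose coordinates match dm6; no peak ran past a chromosome arm. Promoter-bound genes had a TSS with an IDR summit no farther than 1000 bp. Replicate summits were matched by nearest position within 200 bp. Motifs were searched 100 bp to either side of summits, and paralogue loci were aligned with blastn 2.17.0 (e-value limit 1e-10). Tables were handled in pandas 2.3.3 and numpy 2.4.6 under Python 3.11.15, figures drawn in matplotlib 3.10.9 and intervals taken from scipy 1.17.1. Assignment and motif code was tested on simulated summits. The genes and lists were chosen with earlier results of these data known. Named genes were the 10 listed, genes with a TSS within 1000 bp of a listed gene's strongest summit, up to 4 promoter-bound genes of each further list, and 2 genes to either side of ph-p by rank. Neighbouring genes of unbound members, all assigned or promoter-bound genes of the further lists, phol and CG33798 were named after their values were seen. The further lists are the other Polycomb genes, DNA-binding proteins of Polycomb response elements and Trithorax group genes; caly is the annotation's symbol for calypso. Alternatives were other distances, windows and assignments, a stricter peak set and each replicate alone.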

Additional observations from a re-analysis of the deposited data

How the results depend on the processing

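Of 65 values under alternative settings, 50 stayed within 1.5 times the reported count or, for ratios, within 1 SD of the replicates. The 5 members with an IDR summit stayed 5 by nearest TSS or gene body alone, among the 3919 strongest IDR peaks and among the 7838 strongest peaks of each replicate. The share of all genes with an assigned summit was not computed under these settings. The 16 summits of the members fell to 11 by gene body alone and to 11 among those 3919 peaks, within the limit of 1.5 times. Gene body alone leaves out the strongest summits of ph-d and Psc, and the paralogue ratios were not computed under it. Promoter-bound members numbered 4 among those 3919 (13.2% of all genes) and without replicate 3 (22.2%), where Psc was lost. Of the 17 other Polycomb genes, 4 were promoter-bound with a TSS distance of 2000 bp, against 26.0% of all genes. When any base of the peak counted there were 2, against 21.2%. Without replicate 3 there were 3, against 22.2%, and without replicate 4 there were 2, against 20.5%. The log2 ratio of ph-p over ph-d was between 0.80 (without replicate 4) and 1.24 (without replicate 3), and 1.85 for summed IDR summits. That of Psc over Su(z)2 was between 2.95 and 3.27 with 1 replicate left out, 2.06 for summed summits, and -1.04 within 1000 bp of a TSS, where the distal Psc summits do not count. Windows with any of the 7 motifs numbered 9 of 16, against 49.0% of all IDR windows, and 14 with 200 bp to either side, against 79.5%. The 208 bp stretch of ph-p was the same without masking and with a word size of 7, both chosen after seeing the data. The pairing of the second ph-p summit with the strongest ph-d summit was not checked under these settings. No paired analysis was possible because there is 1 group. Read depth is unknown, so weak summits seen in 1 replicate cannot be told from noise.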
